A study of Mus musculus with 8 samples.

Results

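The 51 genes described here build, organise and anchor the actin cytoskeleton. They encode the non-muscle actins, the tropomyosins, the proteins that control actin monomers and filament ends, the Arp2/3 complex and its activators, formins and Ena/VASP proteins, ROCK and LIM kinases, chains of non-muscle myosin II, filament crosslinkers, core focal adhesion proteins and the ezrin, radixin and moesin linkers. They were taken as a fixed list of gene names, chosen with earlier results of these data known. Every array probe that the files assign to one of these genes, under its current or an older symbol, was taken. All 51 genes had a probe, out of 30139 gene names, with 89 of 39429 probes between them. All 51 passed the filter for testing, which 17856 genes passed. For 50 of the 51 the probe was well above background on all 8 arrays, the exception being Myl9. Each gene is represented by its brightest probe, and further probes are described where they disagree.

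Messenger RNA was measured in mSCC-20 cells, a line from a mouse cutaneous squamous cell carcinoma of the FVB/N strain, with single-colour Agilent arrays. All cells were transfected. The controls received a control microRNA (NC, n = 4 arrays), and the others received miR-193b-3p (n = 2) or miR-365-3p, labelled miR-365a (n = 2). The labels give amounts of 0.2 µg for NC replicates 1 and 2 and the miR-193b arrays, and of 0.6 µg for NC replicates 3 and 4 and the miR-365a arrays, called the 0.2 set and the 0.6 set here. The 2 NC arrays of the same set served as the control for each microRNA. The form in which the microRNAs were delivered and the time of harvest were not given in the sources used here. Nothing in the labels says that replicate arrays came from separate cultures of the line. The spread behind every p-value is therefore that between these arrays, and it may be technical.

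Actin filaments are nucleated by the Arp2/3 complex, which starts branches from the side of existing filaments, and by formins, which build unbranched filaments. Profilins deliver monomers to growing ends, cofilins sever filaments, capping protein blocks their ends, and tropomyosins coat them. Myosin II pulls on the filaments under the control of kinases such as ROCK, and focal adhesions tie them through integrins to the matrix. In squamous carcinoma cells, as in keratinocytes, this machinery underlies adhesion, spreading, migration and the last step of cell division.

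MicroRNAs bind messenger RNAs mainly through their seed, bases 2 to 8 from the 5′ end, and the mature sequences of the transfected microRNAs are shown because the seeds differ. They are the RefSeq entries on GRCm38.p6, with the seed in capitals. The hairpins lie on chromosome 16, with miR-193b-3p at chr16:13449570-13449591 and miR-365-3p at chr16:13453895-13453916, both on the plus strand, and miR-365-3p has a second, identical copy at chr11:79726467-79726488 on the plus strand.
mmu-miR-193b-3p: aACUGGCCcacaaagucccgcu
mmu-miR-365-3p: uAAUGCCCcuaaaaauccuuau
The complements of the seeds, GGCCAGT for miR-193b-3p and GGGCATT for miR-365-3p, were searched on the sense strand of the array probes only, which are 60 bases long. Of the 89 probes for these genes 0 held either of them, beside 116 of 39429 probes (0.294%) for GGCCAGT and 123 of 39429 (0.312%) for GGGCATT. The transcripts outside the probes were not searched.

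A level in what follows is the log2 processed signal of the probe minus the 75th percentile of that array, so a level of 0 equals the 75th percentile. A difference is a difference of such levels between groups, with its standard error (SE) from a limma fit to all 8 arrays. A gene was called, and is said to have risen or fallen, at an adjusted p under 0.05, with Benjamini-Hochberg adjustment over the 17856 genes tested. Probes bind with different strength, so levels of different genes are not compared with each other.

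Each array carried 43020 gene spots. The share well above background ran from 51.4% to 54.6% over the 0.2 set and from 58.9% to 62.1% over the 0.6 set, and 0 spots were saturated. All 10 keratinocyte and epithelial markers checked, among them Krt5, Krt14, Trp63 and Cdh1, were well above background on all 8 arrays, as the label requires. Of the 6 smooth muscle and myofibroblast markers, Des, Lmod1 and Myh11 were well above background on 0 arrays, and Acta2, Cnn1 and Smtn on all 8, and Smtn fell after miR-365a (-1.60 ± 0.21, adjusted p = 0.00774). The summed linear levels of these 6 (1 being the 75th percentile) were 11.4 to 15.0 on the NC arrays and 10.2 to 14.3 on the miR-193b arrays of the 0.2 set, and 33.4 to 51.2 on the NC arrays and 18.3 to 31.6 on the miR-365a arrays of the 0.6 set. Their part in the results was not tested. The fibroblast markers Col3a1, Dcn and Lum, the leukocyte marker Tyrobp, the endothelial markers Cdh5, Emcn and Tek and the melanocyte markers Dct and Tyrp1 were well above background on 0 arrays. The leukocyte markers Cd3e, Cd68 and Itgam were well above background on all 8 arrays. The number of markers well above background on all 8 arrays was 1 of 6 for fibroblasts (Pdgfra), 2 of 6 for endothelium (Esam and Kdr) and 1 of 6 for melanocytes (Mlana). Over the 0.2 set their sums were 0.103 to 0.130, 1.21 to 1.65 and 0.220 to 0.349. Over the 0.6 set they were 0.0692 to 0.109, 3.48 to 4.89 and 0.300 to 0.450. Of 3 tested endothelial markers 1 rose after miR-193b, by 0.89.

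After miR-365a, 10 of the 51 genes were called. These were 7 that fell (Arpc1a, Tpm4, Diaph3, Pfn2, Ptk2, Diaph2 and Pfn1) and 3 that rose (Arpc5, Myl12b and Cttn). This is 19.6% of the list, beside 15.8% of all genes tested. With only genes well above background on all 8 arrays tested, 13 of 50 members were called, beside 3417 of 14614 genes. By direction 7 of 51 fell, beside 7.99% of all genes, and 3 rose, beside 7.77%. The median difference over the list was -0.02, beside 0.02 over all genes, and with 1 array left out in turn it ran from -0.13 to 0.13. Of the 7 genes that fell 6 did so by at least 2-fold, and of the 3 that rose 0 did so by as much. The share of all genes called with changes of that size was not computed. Treated and NC arrays were separate for 27 of 51 genes (52.9%), against 61.6% of all genes tested. Below 0 were 26 of the 51, against 47.1% of all genes, and above 0 were 25, against 52.9%.

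After miR-193b, 2 of the 51 genes were called. Actr2 fell and Diaph2 rose. This is 3.92% of the list, beside 2.91% of all genes tested (1.75% higher and 1.15% lower). With only genes well above background on all 8 arrays tested, 3 of 50 members were called, beside 871 of 14614 genes. The median difference was 0.01, beside 0.05 over all genes. An unadjusted p under 0.05 was reached by 8 of 51 genes here, beside 21.3% of all genes, and by 20 after miR-365a, beside 31.2%. Treated and NC arrays were separate for 30 of the 50 genes with all values (60%), against 52.1% of all genes. Above 0 were 27 of the 51, against 55.7% of all genes, and below 0 were 24, against 44.3%. With any 1 of the 8 arrays left out 0 of the 51 were called after miR-193b (3 to 9 at an unadjusted p under 0.05, limma), so both calls rest on the full set of arrays.

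**Figure D1:**
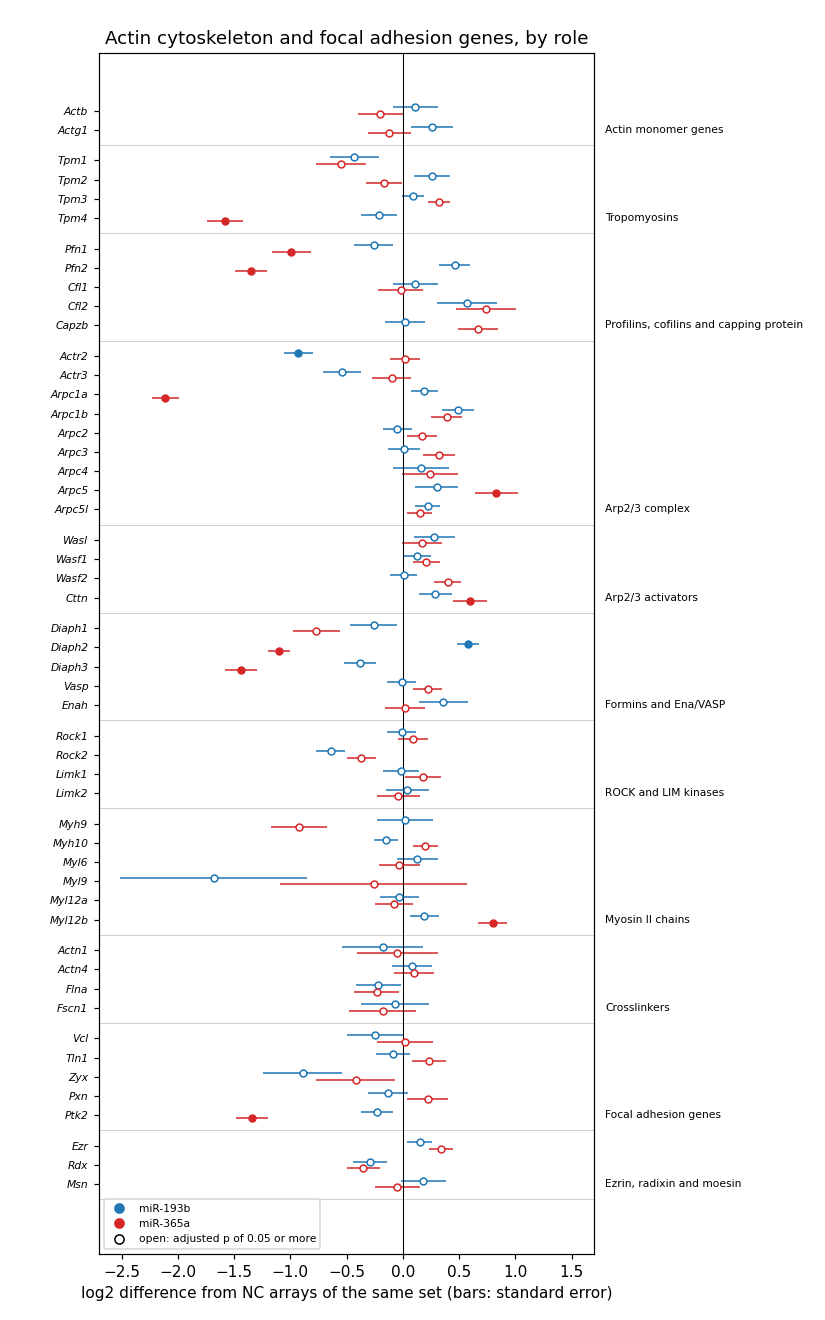
Log2 difference of each of the 51 genes from the 2 NC arrays of the same set, after miR-193b (blue) and after miR-365a (red), by role; points are limma estimates, bars are their standard errors, and filled points have an adjusted p under 0.05. The 7 filled red points left of 0 run from -2.11 for Arpc1a to -0.99 for Pfn1, and the filled blue points are Actr2 and Diaph2.

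Neither gene for the non-muscle actins, the monomers from which all filaments are built, was called. Actb, encoding beta-actin, had levels of 7.96 and 8.16 on the NC arrays and 8.22 and 8.13 on the miR-193b arrays, and of 8.10 and 8.42 on the NC arrays and 7.81 and 8.30 on the miR-365a arrays. The groups overlapped in both sets. Its differences were 0.11 ± 0.20 (SE) after miR-193b and -0.20 ± 0.20 after miR-365a, and the 95% confidence intervals, -0.37 to 0.60 and -0.69 to 0.28, leave room for moderate changes either way. Actg1, encoding gamma-actin, differed by 0.26 and -0.12. Its 5 probes ranged from -0.58 to 0.44 after miR-193b and from -0.20 to -0.01 after miR-365a. The files place the probe at 0.44 on chromosome 8 and the other 4 on chromosome 11, and those 4 ranged from -0.58 to 0.26 after miR-193b. The actin genes and their processed copies are nearly identical in sequence, so the signals of beta-actin and gamma-actin are uncertain where a probe can bind both.

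Of the 4 tropomyosin genes 1 fell after miR-365a and 0 were called after miR-193b (0 at an unadjusted p under 0.05). Tpm4 encodes a non-muscle tropomyosin that coats actin filaments. Its levels were 5.53 and 5.89 on the NC arrays and 4.12 and 4.13 on the miR-365a arrays, where both treated arrays lay more than 1 log2 unit below both controls. This was a 3.00-fold fall (-1.58 ± 0.16, SE, n = 2 and 2, adjusted p = 0.00442). Over the 0.2 set its levels were 5.18 and 5.36 on the NC arrays and 5.16 and 4.97 on the miR-193b arrays, all within 0.4 of each other, and the difference of -0.21 ± 0.16 was not called. Its probe lies on chromosome 8 of mm9 at 74676891 to 74676950. Tpm1, which gives rise to many isoforms through alternative promoters and splicing, had 5 probes that gave different values. Its brightest probe differed by -0.55 after miR-365a (adjusted p = 0.154 among probes) and was not called. The probes 9.1 kb and 4.6 kb away were called, at -1.11 and, for both of those 4.6 kb away, at -0.51, and the probe 1.0 kb away differed by 0.10. After miR-193b all 5 lay between -0.46 and -0.28, with 0 called. Tpm2 and Tpm3 differed by -0.17 and 0.32 after miR-365a and by 0.26 and 0.09 after miR-193b.

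Both profilin genes fell after miR-365a. Profilin binds actin monomers and hands them to formins and Ena/VASP proteins. Pfn2 had levels of -1.01 and -0.79 on the NC arrays and -2.21 and -2.29 on the miR-365a arrays. The groups were well separated, with a 2.55-fold fall (-1.35 ± 0.14, adjusted p = 0.00441). In the 0.2 set Pfn2 went the other way in value, with levels of -1.54 and -1.56 on the NC arrays and -1.19 and -0.98 on the miR-193b arrays, a difference of 0.46 ± 0.14 that was not called (adjusted p = 0.126). Its probe lies on chromosome 3 at 57645945 to 57645886.

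Pfn1, the more widely expressed profilin gene, had levels of 4.40 and 4.48 on the NC arrays and 3.21 and 3.68 on the miR-365a arrays, a 1.99-fold fall (-0.99 ± 0.17, adjusted p = 0.0161). The treated arrays differed between themselves more than the controls did. The call was lost without miR-365a replicate 1 (-0.76, adjusted p = 0.0673), NC replicate 3 (-1.03, adjusted p = 0.0755) or NC replicate 4 (-0.95, adjusted p = 0.0681). A second Pfn1 probe gave a difference of 0.02 ± 0.26 after miR-365a, so the probes gave different values and the fall rests on the brighter one. The second probe was dimmer, with a mean level of -1.51 beside 3.75, and the files name a different transcript for it. On chromosome 11 it lies at 70466215 to 70466156, inside the span given for the brighter probe, 70466312 to 70465688. That span is longer than a probe. Whether both probes measure the same messenger RNA was not tested. The NC arrays of the 0.6 set also stood above those of the 0.2 set for both profilin genes, by 0.76 for Pfn1 and 0.65 for Pfn2.

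The other genes of filament turnover were not called on their brightest probes. Capzb encodes the beta subunit of capping protein. It had levels of 1.93 and 2.05 on the NC arrays and 2.56 and 2.77 on the miR-365a arrays, without overlap, and a difference of 0.67 ± 0.18 that stood just outside the threshold (adjusted p = 0.0557). A second Capzb probe 1.1 kb away, with a dim mean level of -3.95 beside 2.12, was called at 1.30 ± 0.21 (adjusted p = 0.0122). Cfl1 and Cfl2, encoding the filament-severing cofilins, differed by -0.02 and 0.74 after miR-365a and by 0.11 and 0.57 after miR-193b.

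The list holds 9 genes for the Arp2/3 complex, some of whose subunits have alternative forms encoded by different genes. They did not move together. Of the 9 genes, miR-365a left 7 uncalled, with 1 lower and 1 higher, and miR-193b left 8 uncalled, with 1 lower. The largest difference of the whole list was that of Arpc1a, encoding a form of the p40 subunit. Its levels were 2.27 and 2.35 on the NC arrays and 0.24 and 0.15 on the miR-365a arrays, a 4.33-fold fall (-2.11 ± 0.12, adjusted p = 0.00239). The replicates of each group lay within 0.1 of each other. Among the miR-193b comparison arrays the levels were 1.96 and 1.96 on the NC arrays and 2.05 and 2.25 on the miR-193b arrays, and the difference of 0.19 ± 0.12 was not called. Its probe lies on chromosome 5 at 145867953 to 145869253, a span longer than the 60 bases of the probe.

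Arpc1b, encoding the other form of that subunit, did not share the fall. It had levels of 3.99 and 4.09 on the NC arrays and 4.39 and 4.47 on the miR-365a arrays, and 3.31 and 3.61 against 3.90 and 4.01 after miR-193b. The treated arrays were the higher ones in both sets, with differences of 0.39 ± 0.14 (adjusted p = 0.109) and 0.49 ± 0.14 (adjusted p = 0.114), neither of them called. The NC arrays of the 0.6 set stood 0.58 above those of the 0.2 set for this gene.

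Actr2 encodes Arp2, one of the actin-like subunits that start the new filament. Its levels were 3.34 and 3.54 on the NC arrays and 2.57 and 2.44 on the miR-193b arrays, a 1.91-fold fall (-0.93 ± 0.13, adjusted p = 0.0297). On slide 1, which held an array of each group, the difference was -0.77, and across slides 2 and 3 it was -1.09. In the 0.6 set the arrays overlapped, with levels of 3.62 and 3.77 on the NC arrays and 3.66 and 3.75 on the miR-365a arrays, and the difference was 0.02 ± 0.13 with a 95% confidence interval of -0.30 to 0.33. The call after miR-193b was lost on leaving out any 1 of the 8 arrays, with adjusted p from 0.0558 to 0.117 and the difference between -1.03 and -0.84, and in the 0.2 set fitted alone (adjusted p = 0.143). Actr3, encoding Arp3, the partner of Arp2, had levels of 4.17 and 4.22 on the NC arrays and 3.78 and 3.52 on the miR-193b arrays. Its difference of -0.54 ± 0.17 had the same sign and was not called (adjusted p = 0.139).

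Arpc5, encoding the smallest subunit, had levels of 4.39 and 4.89 on the NC arrays and 5.36 and 5.59 on the miR-365a arrays, a 1.78-fold rise (0.83 ± 0.19, adjusted p = 0.0334). The NC arrays differed from each other more than the miR-365a arrays did. Leaving out miR-365a replicate 1 (adjusted p = 0.0983), miR-365a replicate 2 (0.166), NC replicate 3 (0.123, with the difference at 0.58) or either miR-193b replicate (0.0577) ended the call. A second probe 4.1 kb away differed by 0.64 ± 0.21 and was not called. Arpc5l, encoding the alternative form of that subunit, differed by 0.15 after miR-365a and 0.22 after miR-193b. The remaining subunit genes Arpc2, Arpc3 and Arpc4 differed by 0.17 to 0.32 after miR-365a and by -0.05 to 0.16 after miR-193b.

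Of the 4 genes for activators of the complex, 1 rose after miR-365a and 0 were called after miR-193b (0 at an unadjusted p under 0.05). Cttn encodes cortactin, which binds the complex and stabilises branches. Its levels were 3.37 and 3.65 on the NC arrays and 4.11 and 4.10 on the miR-365a arrays, a 1.51-fold rise (0.60 ± 0.15, adjusted p = 0.0433). Among the calls after miR-365a this was the nearest to the threshold, and it was lost on leaving out any 1 of the 8 arrays (adjusted p 0.0501 to 0.195). A second probe 1.1 kb away differed by 0.66 ± 0.28 and was not called. Wasl, Wasf1 and Wasf2, encoding N-WASP and members of the WAVE family, differed by 0.17, 0.21 and 0.40 after miR-365a and by 0.28, 0.13 and 0.01 after miR-193b.

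The diaphanous formins, which lengthen unbranched filaments, held the gene that was called after both microRNAs. Diaph2 had levels of -0.36 and -0.32 on the NC arrays and -1.47 and -1.41 on the miR-365a arrays. This was a 2.14-fold fall (-1.10 ± 0.10, adjusted p = 0.00403), and a second probe 137.6 kb away gave nearly the same value, -1.16 ± 0.13, also called. In the 0.2 set the direction was the opposite, with levels of 0.01 and -0.07 on the NC arrays and 0.57 and 0.53 on the miR-193b arrays, a 1.49-fold rise (0.58 ± 0.10, adjusted p = 0.0463). The second probe rose in value by a like amount, 0.61. The rise was 0.56 on slide 1 and 0.60 across slides 2 and 3. Its call was lost on leaving out any 1 of the 8 arrays (adjusted p 0.0813 to 0.169, with the difference between 0.54 and 0.62), in the 0.2 set alone (adjusted p = 0.171) and in the fit by probe (adjusted p = 0.0529 and 0.0749).

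Diaph3 had levels of -0.44 and -0.62 on the NC arrays and -1.84 and -2.10 on the miR-365a arrays, a 2.71-fold fall (-1.44 ± 0.14, adjusted p = 0.00404). In the 0.2 set its levels were -0.44 and -0.36 on the NC arrays and -0.77 and -0.79 on the miR-193b arrays. These did not overlap either, but the difference of -0.38 ± 0.14 was not called (adjusted p = 0.186). Diaph1 had levels of -2.05 and -1.54 on the NC arrays and -2.55 and -2.59 on the miR-365a arrays, and its difference of -0.77 ± 0.21 stood just outside the threshold (adjusted p = 0.0572). A second Diaph1 probe 44.9 kb away was called at -1.14 ± 0.17 (adjusted p = 0.0101). Each of the 3 diaphanous genes thus had at least 1 called probe that fell after miR-365a, and the signs after miR-193b were not the same in all 3.

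The genes for the Ena/VASP proteins, which protect growing ends from capping, were not called. Vasp differed by 0.22 after miR-365a and -0.01 after miR-193b. Enah differed by 0.02 and 0.36, and for this gene the fit had only 1 NC array in the 0.2 set because the spot of NC replicate 1 was flagged as an outlier.

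The genes for the ROCK and LIM kinases, which act on myosin and cofilin, were not called after either microRNA (1 of 4 at an unadjusted p under 0.05 in each comparison). Rock2 came nearest, with levels of -1.56 and -1.49 on the NC arrays and -2.04 and -2.28 on the miR-193b arrays. Its difference was -0.64 ± 0.13 (adjusted p = 0.0571), and it was -0.48 on slide 1 and -0.79 across slides 2 and 3. After miR-365a it was -0.37 ± 0.13. Rock1 differed by -0.01 and 0.09, Limk1 by -0.02 and 0.18, and Limk2 by 0.04 and -0.04, in the order miR-193b and miR-365a.

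Of the 6 genes for chains of myosin II, the motor of stress fibres and of the contractile ring, 1 rose after miR-365a and 0 were called after miR-193b (0 at an unadjusted p under 0.05). Myl12b, encoding a regulatory light chain, had levels of 3.44 and 3.40 on the NC arrays and 4.21 and 4.24 on the miR-365a arrays, a 1.75-fold rise (0.80 ± 0.13, adjusted p = 0.0147). The replicates were within 0.1 of each other in both groups. The call was lost when any 1 of the 4 arrays of the 0.6 set was left out (adjusted p 0.0620 to 0.0847), with the difference between 0.78 and 0.82. Its neighbour Myl12a, which encodes a nearly identical protein, differed by -0.08 after miR-365a and -0.03 after miR-193b.

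Myh9, encoding the heavy chain of non-muscle myosin IIA, had levels of 5.59 and 6.15 on the NC arrays and 4.68 and 5.22 on the miR-365a arrays. The difference of -0.92 ± 0.25 stood just outside the threshold (adjusted p = 0.0566). The second Myh9 probe was dim, with a mean level of -4.76 beside 5.26, and differed by -0.09 ± 0.55. Its error is too large to tell a change of that size from none. Myh10, encoding the heavy chain of myosin IIB, differed by 0.20 after miR-365a and -0.15 after miR-193b, and Myl6, encoding an essential light chain, by -0.03 and 0.13. Myl9, encoding the light chain best known from smooth muscle, was the dim gene of the list. In the 0.2 set it had levels of -5.10 and -3.36 on the NC arrays and -6.33 and -5.50 on the miR-193b arrays, and only 1 of these 4, NC replicate 2, was well above background. No fold is given for this set, in which the fit did not call the gene (adjusted p = 0.301). In the 0.6 set all 4 arrays measured it, at -1.24 and -0.06 on the NC arrays and -1.85 and 0.03 on the miR-365a arrays, which overlapped.

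The crosslinker genes were 0 of 4 called after either microRNA (0 at an unadjusted p under 0.05 in both). They encode alpha-actinins, which bundle filaments (Actn1 and Actn4), the network-forming filamin A (Flna) and the bundling protein of filopodia fascin (Fscn1). Their differences lay between -0.22 and 0.08 after miR-193b and between -0.23 and 0.10 after miR-365a.

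Of the 5 focal adhesion genes 1 fell after miR-365a and 0 were called after miR-193b (1 at an unadjusted p under 0.05). Ptk2 encodes focal adhesion kinase, which signals from clustered integrins. Its levels were 0.40 and 0.71 on the NC arrays and -0.89 and -0.69 on the miR-365a arrays, a 2.54-fold fall (-1.34 ± 0.14, adjusted p = 0.00492). The groups were more than 1 log2 unit apart. In the 0.2 set its levels were 0.29 and 0.27 on the NC arrays and 0.06 and 0.04 on the miR-193b arrays, a difference of -0.23 ± 0.14 that was not called. A second Ptk2 probe 115.6 kb away differed by -0.31 ± 0.20 after miR-365a and was not called, so the probes of this gene disagreed in size and in call. The brighter probe lies on chromosome 15 at 73035691 to 73035632.

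Zyx, encoding zyxin, which marks mature adhesions under tension, had levels of 4.05 and 3.75 on the NC arrays and 3.25 and 2.76 on the miR-193b arrays. The difference of -0.89 ± 0.35 was nearly as large as that of Actr2, but its error was larger and it was not called (adjusted p = 0.215). After miR-365a it was -0.42 ± 0.35. Vcl, encoding the adaptor vinculin, Tln1, encoding talin, and Pxn, encoding the scaffold paxillin, differed by -0.25, -0.09 and -0.13 after miR-193b and by 0.02, 0.23 and 0.22 after miR-365a. All 5 focal adhesion genes were below 0 after miR-193b, where 44.3% of all genes were. For Vcl, Tln1 and Pxn the SE was 0.25, 0.15 and 0.18, so these signs are uncertain. Other role groups went the other way, with all 4 Arp2/3 activator genes above 0. The signs also depend on the centring, as 24 of the 51 genes were below 0 in the main fit and 32 with quantile normalization.

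The genes for ezrin, radixin and moesin, which link filaments to the membrane, were 0 of 3 called after either microRNA (0 and 1 at an unadjusted p under 0.05 after miR-193b and miR-365a). Ezr, Rdx and Msn differed by 0.15, -0.29 and 0.18 after miR-193b and by 0.34, -0.35 and -0.05 after miR-365a.

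**Figure D2:**
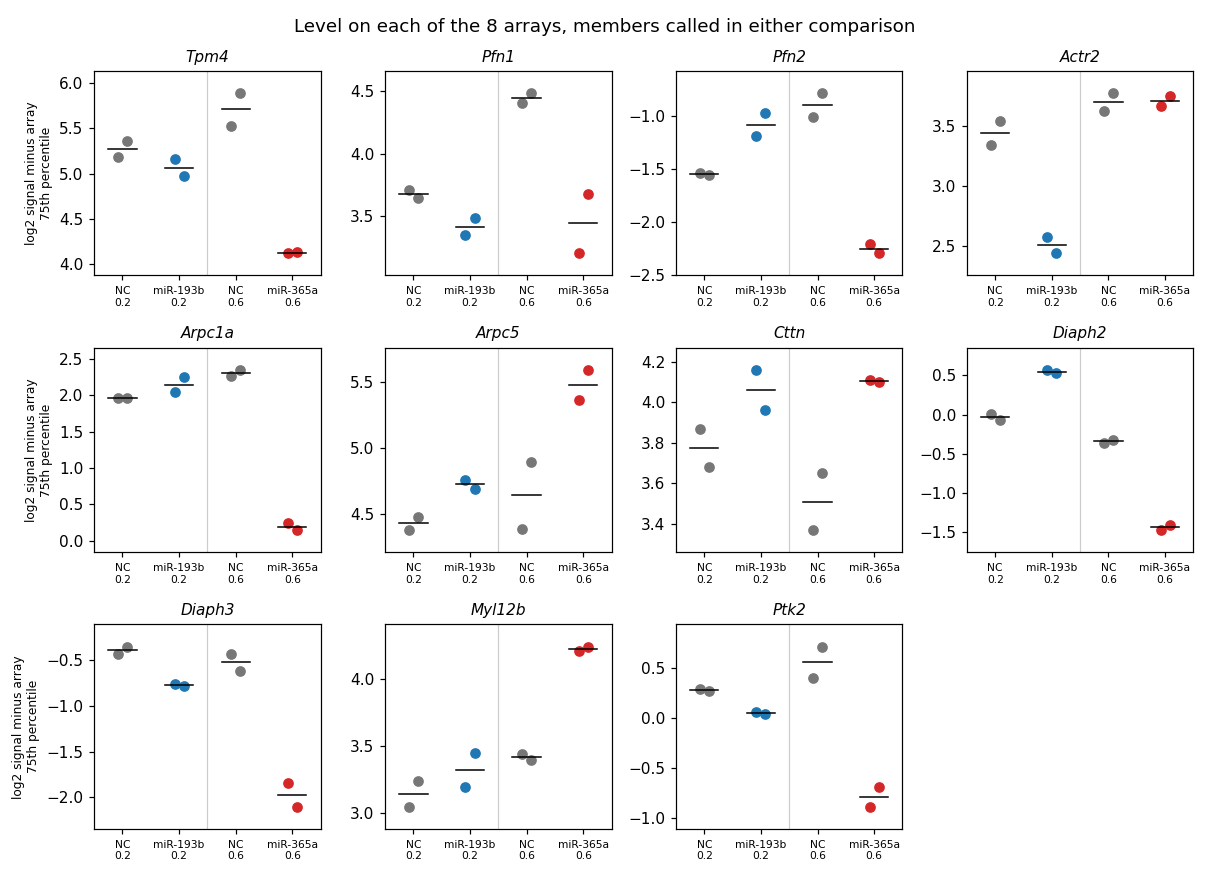
Level (log2 signal minus the 75th percentile of the array) of the 11 genes called after either microRNA, on each of the 8 arrays; points are arrays, the black lines are group means, and the axes differ between panels. The miR-365a arrays lie below the NC arrays of the 0.6 set for the 7 genes that fell, with a difference of -2.11 for Arpc1a, and the miR-193b arrays stand apart from their controls for Actr2 and Diaph2.

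The microRNAs were also compared with each other, as the effect of miR-365a minus that of miR-193b in the same fit. These effects have no NC array in common. Of the 51 genes 7 differed, 13.7% of the list beside 3.49% of all genes tested, and 11 had an unadjusted p under 0.05, beside 20.1%. With only genes well above background on all 8 arrays tested, 7 of 50 members differed. The matching share of all genes was not computed for this contrast. The list was also chosen with earlier results of these data known, so the larger share is not read as a trait of the list. Actr2 was the 1 gene with the higher effect after miR-365a (beside 1.09% of all genes), and 6 had the lower one (beside 2.40%). The largest difference was that of Arpc1a, -2.31 ± 0.17 (adjusted p = 0.0102), followed by Pfn2 at -1.81 ± 0.19 (adjusted p = 0.0145) and Diaph2 at -1.68 ± 0.15 (adjusted p = 0.0113). For Pfn2 and Diaph2 the microRNAs had opposite signs, though only Diaph2 was called in both comparisons. Tpm4 differed by -1.38 ± 0.23 (adjusted p = 0.0332), Ptk2 by -1.11 ± 0.20 (adjusted p = 0.0441), Diaph3 by -1.06 ± 0.19 (adjusted p = 0.0435) and Actr2 by 0.95 ± 0.18 (adjusted p = 0.0494).

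Pfn1, Arpc5, Myl12b and Cttn, which were called after miR-365a and not after miR-193b, did not pass this test of the difference between the microRNAs. For Pfn1 the difference between the effects was -0.73 with a 95% confidence interval of -1.32 to -0.15 (adjusted p = 0.165), and for Cttn 0.31 with an interval of -0.20 to 0.82. Over the list, 11 genes were called in at least 1 comparison, 1 in both and 40 in neither, and 31 of the 51 had the same sign after both microRNAs. The matching shares over all genes tested were not computed, so these counts only describe the list. The count of 7 fell to 3 without any 1 array of the 0.2 set, to 1 without NC replicate 3, and to 0 without NC replicate 4, miR-365a replicate 1 or miR-365a replicate 2 (limma, with 8 to 11 at an unadjusted p under 0.05). Arpc1a, Pfn2 and Diaph2 were the 3 that stayed called without any 1 array of the 0.2 set, and Arpc1a the 1 that did so without NC replicate 3.

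**Figure D3:**
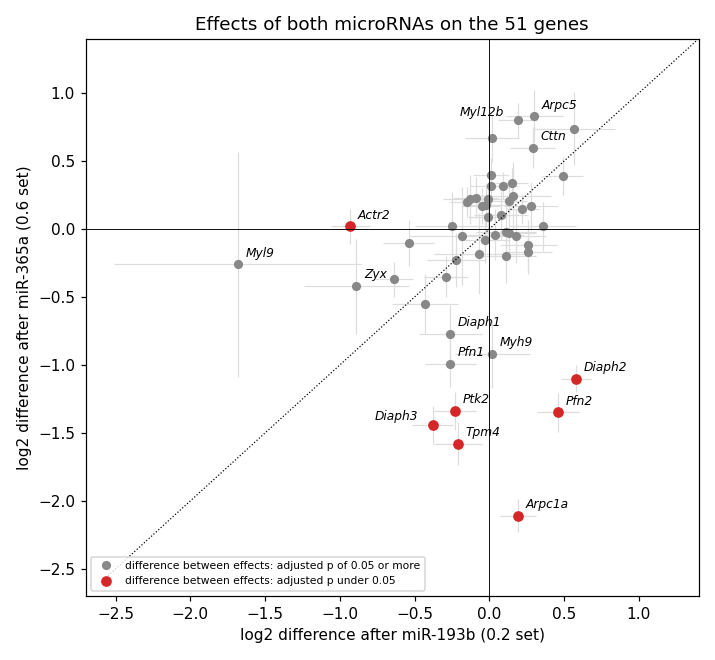
Log2 difference after miR-365a (0.6 set, vertical axis) against that after miR-193b (0.2 set, horizontal axis) for the 51 genes, with standard errors as grey bars and the dotted line where both are equal; red points have an adjusted p under 0.05 for the difference between the effects. Most genes lie near the centre, 6 red points lie below the line, with Arpc1a lowest at -2.11, and Actr2 is the red point above it.

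How far the probes of a gene gave the same value bears on these calls. Of the 51 genes 25 had more than 1 tested probe, 85 tested probes in all. In the fit by probe after miR-365a, Diaph2 was the 1 gene with all of its probes called, and 7 genes (Arpc5, Capzb, Cttn, Diaph1, Pfn1, Ptk2 and Tpm1) had a called and an uncalled probe. For Arpc5, Capzb, Cttn and Diaph1 the probes had the same sign, whereas for Pfn1, Ptk2 and Tpm1 1 probe of the gene was near 0 or much smaller. Arpc1a, Tpm4, Diaph3, Pfn2, Myl12b and Actr2 had 1 tested probe each, so no such comparison could be made for them. After miR-193b Actr2 was the 1 gene of the list with a called probe in that fit. The matching shares over all genes were not computed for the fit by probe, so these counts only describe the list.

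**Figure D4:**
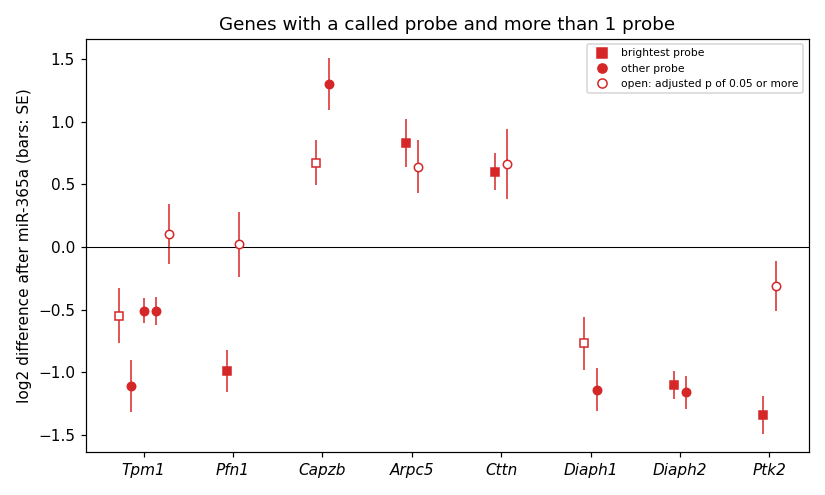
Log2 difference after miR-365a for each tested probe of the 8 genes that had more than 1 probe and at least 1 called, with standard errors as bars; squares are the brightest probes, circles the others, and filled symbols have an adjusted p under 0.05 in the fit by probe. The 2 probes of Diaph2 lie together at -1.10 and -1.16, and those of Pfn1 lie apart at -0.99 and 0.02.

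The NC arrays of the sets were compared as well, because the sets differ in the amount on the label, in slide and in scan, which cannot be told apart. Of the 51 genes 8, Myl9 among them, were called higher in the 0.6 set and 0 lower (limma). At an unadjusted p under 0.05, which 34.6% of all genes reached, 16 were higher and 3 lower. The 8 are counted as called. They are 15.7% of the list, where 15.5% of all genes tested were called and 11.5% were called higher. The median difference was 0.28, beside 0.12 over all genes. Limk1 stood 1.42 ± 0.16 higher (adjusted p = 0.00607). Myl9 was called as well (adjusted p = 0.0376), but NC replicate 1 was not well above background for it. It entered the test only through the arrays of the 0.6 set, where it is high. No size is therefore given, and its call is not read as a difference. The others were Pfn1, Pfn2, Arpc1b, Arpc3, Wasf2 and Tln1, between 0.58 and 0.76. Levels of these genes are therefore compared only within a set.

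Transcription of many actin genes is controlled by serum response factor, whose cofactors of the myocardin-related family are held back by actin monomers, and which binds the CArG box. The promoters in the RefSeq table (GRCm38.p6, 250 bases before to 50 after each start) were searched for this motif on both strands. Of the 51 genes 44 had an entry, and 5 of these (11.4%) held a CArG box, beside 488 of 27025 genes (1.81%). The matches are shown because they mark the genes of the list that carry the motif. The box is in capitals, in the direction of the gene, and its first base, counted from the start, lies at -90 for Actg1, -250 for Arpc4, -50 for Myl6, -161 for Myl9 and -227 for Vcl.
Actg1, chr11:120348566-120348595, minus strand: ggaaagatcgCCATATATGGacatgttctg
Arpc4, chr6:113377863-113377882, plus strand: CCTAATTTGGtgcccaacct
Myl6, chr10:128493040-128493069, minus strand: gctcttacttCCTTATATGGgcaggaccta
Myl9, chr2:156775293-156775322, plus strand: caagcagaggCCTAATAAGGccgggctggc
Vcl, chr14:20929161-20929190, plus strand: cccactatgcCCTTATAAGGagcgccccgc
None of these 5 genes was called after either microRNA, and of the 11 called genes 9 had an entry and 0 held the box in this window. The genes without an entry were Actb, Arpc5l, Cttn, Diaph1, Ptk2, Pxn and Rock1. A match is a description of the letters and not evidence of binding.

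Lists of further genes of the pathway were counted in the same fit. Of 16 tested genes for serum response factor, its cofactors and their classic targets 0 were called after either microRNA (2 after miR-193b and 1 after miR-365a at an unadjusted p under 0.05, limma), with medians of -0.21 and -0.32. Over all genes tested 2.91% were called after miR-193b and 15.8% after miR-365a, with medians of 0.05 and 0.02. Srf itself differed by -0.19 and -0.34.

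Of 25 further focal adhesion genes 0 were called after miR-193b (7 at an unadjusted p under 0.05, limma). After miR-365a 2 were called lower and 1 higher (8 at an unadjusted p under 0.05, limma). Tln2, encoding the second talin, fell by 0.85 on the log2 scale and Arhgef7, encoding a Rac and Cdc42 exchange factor, rose by 0.52. The other gene called lower was Parvb, encoding beta-parvin, whose probe was well above background only on the NC arrays of the 0.6 set. It entered the test only through the group where it is high, so no size is given and its call is not read as a fall. Of 50 further regulators of filaments, 1 rose and 0 fell after miR-193b, and 4 rose and 8 fell after miR-365a. Of all genes tested 1.75% rose and 1.15% fell after miR-193b, and 7.77% rose and 7.99% fell after miR-365a. An unadjusted p under 0.05 (limma) was reached by 10 and 22 of these 50, beside 21.3% and 31.2% of all genes. Septin2, encoding a filament-forming septin, rose in both (0.84 and 1.31). Among the others after miR-365a with the smallest p, the formin gene Fmn1 rose by 1.75, whereas Ssh2, encoding a cofilin phosphatase (-1.14), the coronin gene Coro1c (-1.32) and the tropomodulin gene Tmod3 (-0.81), whose product caps pointed ends, fell.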

How the data were processed

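The spots' intensity values come, per the file headers, from Agilent Feature Extraction 10.7.3.1 as its processed signal, from which that software had subtracted background, and arrays had not been scaled to each other. Probe positions are those of the files (mm9). A table of log2 values that the authors deposited for the same arrays, with medians of 7.04 to 7.05, was used as an alternative; the submitters' processing notes name limma, and how those values were centred is not given in the sources used here.

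Control spots and outlier-flagged spots were left out. Log2 signals were centred on the 75th percentile of each array, spots of a probe were averaged, and the brightest probe stood for a gene. Of 39429 probes, 27508 were named by accession, 3544 by symbol and 404 by synonym, and 7973 kept the files' name. A gene was tested where some combination of transfection and set had both of its arrays well above background. All 8 arrays entered 1 fit (limma 3.58.1, lmFit and eBayes, R 4.3.3), whose coefficients were set, miR-193b and miR-365a (4 residual degrees of freedom, prior 2.31), with Benjamini-Hochberg adjustment. The fit was run on simulated data with independent noise and no slide or set effect. This checked the computation and not the calls. Precision is limited by how few arrays there are.

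The genes, their role groups and the further lists were chosen with earlier results of these data known. Each of the 51 genes is accounted for, with the values on every array for those called. Outside them, up to 5 called genes with the smallest p were named per list and comparison; Parvb and Srf are also given. The leukocyte markers are reported in part, and a list of pathway genes is not reported here. Actb, Capzb, Diaph1, Rock2, Myh9, Myl9, Zyx, Actr3 and Arpc1b were given by array after their values were seen.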

Additional observations from a re-analysis of the deposited data

Results flagged for a closer look

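For 7 of the 51 genes the effects of the microRNAs differed by the test of the difference itself (limma, adjusted p under 0.05), each effect being measured against the NC arrays of its own set. The effect of miR-365a minus that of miR-193b was -2.31 for Arpc1a, -1.81 for Pfn2, -1.68 for Diaph2, -1.38 for Tpm4, -1.11 for Ptk2, -1.06 for Diaph3 and 0.95 for Actr2, all on the log2 scale. The microRNAs were measured in sets that also differ in the amount on the label, slide and scan, so a dependence of an effect on the set cannot be told apart from a difference between the microRNAs.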

How the results depend on the processing

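The falls of Tpm4, Pfn2, Arpc1a, Diaph2, Diaph3 and Ptk2 after miR-365a kept their call in all 17 alternatives with a test, and 0 of the named results reversed. The call was lost in 4 of 17 for Pfn1, 5 for Myl12b, 8 for Arpc5, 12 for Cttn, 10 for Actr2 after miR-193b and 11 for Diaph2 after miR-193b. Without the filter on dim probes, when 30139 genes were tested, 0 members were called after miR-193b (6 at an unadjusted p under 0.05, limma), 6 after miR-365a and 0 between the microRNAs (10), with 11 and 1057 genes in all. The mean of all probes left 1 member after miR-193b, and the 0.2 set alone 0 (9 at an unadjusted p under 0.05) and 0 genes in all (3108). Leaving out 1 array gave 0 members after miR-193b in each case (3 to 9 at an unadjusted p under 0.05), 6 to 10 after miR-365a (6 without miR-365a replicate 1 or NC replicate 3) and 0 to 3 between the microRNAs, and 29 to 281 and 588 to 2831 genes in all. After miR-193b all genes called numbered 519 (313 higher, 206 lower), and 975 with normexp (688 and 287), 802 with the deposited values, 871 with probes well above background on all 8 arrays and 1042 with trended, robust variance. After miR-365a members called were 3 rising and 7 falling, and 6 and 9 with the deposited values. The median of the members after miR-193b, 0.01, was -0.05 with quantile normalization, -0.07 with the deposited values and -0.04 across slides 2 and 3. Where the alternative does not by its construction test more genes or use fewer arrays, the cause was not tested. No paired analysis was run because the labels carry no replicate numbers. Only slide 1 held NC and miR-193b together, a single pair given above as a value with no test. Slide as a random block (correlation 0.30) kept both calls after miR-193b and all 10 after miR-365a. In the 0.6 set miR-365a replicate 1 and NC replicate 3 came first on the slide. For Myh9, Zyx, Actn1 and Myl9, but not for all genes, these were the lower arrays of both groups. Whether arrays are paired by position was not tested. Over the 4 pairings of a miR-365a with an NC array the median of the members ran from -0.27 to 0.29. With 2 arrays per group and set, a small change cannot be told from none, and Myl9 in the 0.2 set is limited by background.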
